A study of Mus musculus with 4 samples.

Results

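The lungs of unexposed C57BL/6J mice, an inbred laboratory strain, were pooled and their total RNA was read on 1 oligonucleotide array. It is 1 of 4 arrays in a study of the response to inhaled hexamethylene diisocyanate (HDI), a reactive chemical of polyurethane paints, and serves there as the unexposed pool, titled with time 0. The other 3 arrays, of lungs taken after HDI, are not analysed here. The labels name whole lung, so airways, alveoli, vessels and any blood left in them were read together. The number, age and sex of the mice in the pool are not stated in the labels.

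The description covers every non-control probe set of this array that carries 1 gene symbol, 10833 of 12422. A probe set is a group of short probes read as 1 intensity for 1 transcript. Each of the 8251 genes took the intensity of its brightest probe set and was ranked from the highest down. The top 10% of genes, 825 of 8251, read 448 units or more, and the next gene below read 446. A gene is called near background when it read under 73.0 units, the 40th percentile of all non-control probe sets. By this threshold 2548 of 8251 genes (30.9%) lay near background, the highest of them at 72.95 and the lowest above it at 72.97. With 1 array there is no spread between replicates, and no value below carries a replicate error or a test. Probe sets differ in how well they hybridise, so the ranking is one of signals and not of transcript amounts.

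Lung tissue joins a conducting airway to a very large gas exchange surface. Club cells and ciliated cells line the small airways, the first secreting and detoxifying and the second moving mucus. In the alveoli, flat type I cells form the barrier to gas and cuboidal type II cells make surfactant, the lipid and protein film that keeps alveoli open. Around them lie a dense capillary bed, an elastic matrix made by fibroblasts, smooth muscle of airways and vessels, and resident macrophages. Membership of a gene in a list below follows such textbook knowledge, and many listed genes are used by several cell types.

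The highest intensities belonged to a club cell protein, a surfactant protein and a globin chain. Scgb1a1, the main secretory protein of club cells, read 9918 units, Sftpc, the surfactant protein made by type II cells alone in the lung, 9208, and Hba-a1, an alpha chain of haemoglobin, 7643. The gene in the middle of the ranking read 123. These 3 genes together held 1.5% of the intensity summed over all genes, the first 10 held 3.32%, the first 100 held 15.1% and the 825 of the top 10% held 43.6%. Intensity fell to 4008 at rank 10 and 1555 at rank 100, so no small group of genes took most of the signal. At the other end 62 genes were listed at 0.

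**Figure D1:**
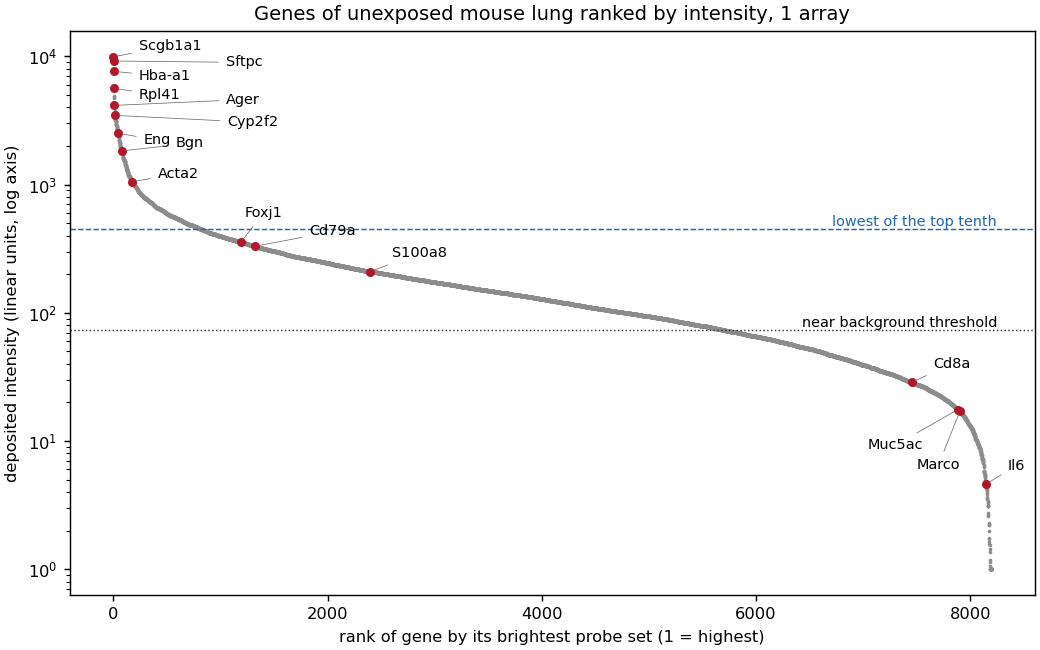
All 8251 genes of the unexposed lung array in order of rank (x axis) against their deposited intensity in linear units (y axis, log scale), with 1 grey point per gene and 16 named genes in red. The dashed line is the lowest gene of the top 10% (448) and the dotted line the near background threshold (73.0); genes under 1 unit, including those listed at 0, are drawn at 1. Scgb1a1 and Sftpc stand at the left end, and Muc5ac, Marco and Il6 lie below the dotted line.

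The 30 highest genes were a mixture of lung products and of genes that every cell uses. Of the 30, 8 were on lists of lung epithelium, 4 on lists of stroma, 3 on lists of immune or blood cells and 8 on lists of general cell function, and 5 were on no list. From epithelium these were Scgb1a1, Sftpc, Ager, Cyp2f2, Sftpb, Hopx, Scd1 and Slc34a2, and from stroma Gpx3, Mgp, Gsn and Inmt. Hba-a1 was on the red blood cell list, and B2m and H2-K1 on that of the antigen-presenting class I complex that nearly all cells carry. The general group held the ribosomal protein genes Rpl41 (5638), Rps28 (4231), Rps24 (3758) and Rplp0 (3205), the translation genes Tpt1 (4799) and Eef1a1 (4722), and the cytoskeletal genes Tmsb4x (4008) and Tuba1c (3129).

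Hp, which encodes the haemoglobin-binding plasma protein haptoglobin, was rank 12 at 3638. Fth1, the heavy chain of the iron store ferritin, read 2954. Those on no list were Ly6e (4893), a lipid-anchored surface protein, Wdr92 (3241), Gnas (3161), the stimulatory G protein alpha subunit, Rps3a1 (2933), a ribosomal protein, and Cst3 (2876), the protease inhibitor cystatin C. For 8 of the 30, among them Rpl41, Ly6e, Mgp and H2-K1, the probe set carries a suffix that marks possible cross-hybridisation with related transcripts. A second probe set of Ly6e read 123, and a second one of Rps24 read 46.8, near background. The other probe sets of Gnas read 117 and 53.1.

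Surfactant and type II cell genes stood high. Of 16 ranked among 26 listed, 10 (62.5%) were in the top 10%, against 10% of all genes, and 1 was near background, against 30.9% of all genes. Their median intensity was 636, against 123 for all genes. Behind Sftpc came Sftpb (3361), which is needed to spread surfactant lipid, and Slc34a2 (2935), a phosphate transporter of the type II cell surface. Scd1, a fatty acid desaturase, read 3052, 1639 and 226 with its 3 probe sets. Napsa, the aspartic protease that trims the surfactant protein B precursor, read 1604, and Muc1, a membrane mucin, 926. In the same class were Fasn (714), fatty acid synthase, Ctsh (639), a lysosomal protease, Cebpa (633), a transcription factor, and Lpcat1 (583), which makes the main surfactant phospholipid.

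Lower in the list stood lipid and control genes. Fabp5, a fatty acid carrier, read 294, Pcyt1a, which sets the rate of phosphatidylcholine synthesis, 281 and 66.8 with its 2 probe sets, and Acsl4, which activates fatty acids, 206 and 72.8. The transcription factor Foxa2 read 202 and the lipid receptor Cd36 189. Sftpd, a surfactant collectin that binds microbes, was the member near background, at 35.0 units. Its single probe set lay far below those of Sftpc and Sftpb, and a dim probe set cannot be told apart here from a low transcript. In whole lung, here and for every cell type named, fewer cells of a type and less RNA per cell cannot be told apart.

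Type I cell genes held the largest share of top genes among the epithelial lists. Of 12 ranked among 19 listed, 9 (75%) were in the top 10% and 1 was near background, with a median of 714. Ager, the receptor for advanced glycation end products and a hallmark of the type I cell, read 4147, rank 9, and Hopx, an atypical homeodomain protein, 3112. Cav1, which builds caveolae in type I and in endothelial cells, read 1740 with one probe set and 81.1 with another. Emp2, a membrane protein, read 1203, Igfbp6 and Igfbp2, which bind insulin-like growth factors, 861 and 708, and Krt7, a keratin of simple epithelia, 720. Vegfa, the vascular growth factor, read 563 and S100a14 551, with 45.5 from its second probe set. Between the 2 thresholds lay Pdpn (375), the type I surface protein podoplanin, and Cyp2b19 (183), a cytochrome P450. Sema3a, a secreted guidance cue, was near background at 32.0.

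Club cell genes had the highest median of all 42 lists, 885 units. Of 14 ranked among 26 listed, 9 (64.3%) were in the top 10% and 0 were near background. Besides Scgb1a1 these were mostly enzymes. Cyp2f2, the cytochrome P450 of mouse club cells that activates naphthalene, read 3465, Cyp4b1 1552 and Cyp2b10 744. Aldh1a1, an aldehyde dehydrogenase, read 2870 with one probe set and 120 with the other, and Ces1d, a carboxylesterase, 1181 and 824. Gsto1, a glutathione transferase, read 1025, the selenium-binding protein Selenbp1 987 and the flavin monooxygenase Fmo1 782. The lower members were Aldh1a7 (389), Reg3g (357), an antibacterial lectin, Cckar (257), the cholecystokinin A receptor, Chad (254), a matrix protein, and Kcnk2 (152), a potassium channel, none of them under the near background threshold.

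4 of the highest genes are shown by the 250 bases before their start site, a pair of lung cell products and a pair of translation genes, because their promoters differ in the density of CG dinucleotides. The sequences are RefSeq's on GRCm38.p6, read 5' to 3' on the strand of the gene, with each CG in capitals, and the genes were picked after their ranks were seen. They lie at chr7:27119705-27119954, plus strand (Cyp2f2), chr6:72304360-72304609, plus strand (Sftpb), chr14:75845006-75845255, plus strand (Tpt1) and chr9:78481725-78481974, minus strand (Eef1a1), directly upstream of the annotated start.
Cyp2f2: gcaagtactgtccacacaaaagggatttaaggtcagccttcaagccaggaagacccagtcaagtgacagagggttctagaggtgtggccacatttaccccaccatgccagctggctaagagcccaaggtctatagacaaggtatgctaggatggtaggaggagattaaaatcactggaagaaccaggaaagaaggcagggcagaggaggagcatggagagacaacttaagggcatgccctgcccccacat
Sftpb: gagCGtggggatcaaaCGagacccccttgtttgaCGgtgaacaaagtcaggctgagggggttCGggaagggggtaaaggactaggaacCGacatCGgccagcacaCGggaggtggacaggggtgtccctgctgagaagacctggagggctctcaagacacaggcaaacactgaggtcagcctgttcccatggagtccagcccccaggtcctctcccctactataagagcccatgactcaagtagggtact
Tpt1: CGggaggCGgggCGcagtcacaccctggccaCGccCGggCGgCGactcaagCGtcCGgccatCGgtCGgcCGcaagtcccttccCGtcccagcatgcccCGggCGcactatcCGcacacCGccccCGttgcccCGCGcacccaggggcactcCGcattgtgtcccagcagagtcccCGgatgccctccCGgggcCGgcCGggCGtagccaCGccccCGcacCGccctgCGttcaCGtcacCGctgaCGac
Eef1a1: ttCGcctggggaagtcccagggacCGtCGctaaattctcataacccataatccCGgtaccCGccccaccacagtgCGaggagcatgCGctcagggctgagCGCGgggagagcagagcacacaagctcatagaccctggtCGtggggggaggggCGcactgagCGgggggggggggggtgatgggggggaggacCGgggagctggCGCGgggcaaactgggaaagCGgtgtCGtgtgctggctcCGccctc

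The club cell gene Cyp2f2 has 0 CG in this stretch, as do 8.26% of the 27025 promoters of the table at that or a lower count. Sftpb has 7, where the median promoter of the table has 6. Tpt1 has 33, a count that 3.84% of table promoters reach, and Eef1a1 has 18, which 21.6% reach. Of the other high genes looked up, Ager has 3 and Hba-a1 has 4. A CG dinucleotide reads the same on both strands, and the counts describe these windows only. Scgb1a1 and Sftpc, the genes of highest intensity, had no promoter sequence to show. The genes were shown because their counts differ, so they give no comparison of lung products with translation genes.

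Genes of ciliated cells had a median of 91.7, against 123 for all genes. Of 20 ranked among 32 listed, 1 (5%) was in the top 10%, against 10% of all genes. With so few genes these shares differ by little. Near background were 6 (30%), close to the 30.9% of all genes. The top one was the alpha tubulin Tuba1a, 2693, a tubulin of many cell types whose probe set may cross-hybridise. Ift88, an intraflagellar transport protein, read 378, and Foxj1, the transcription factor that switches on the ciliary programme, 355. Ezr, an apical membrane linker, read 270, Cetn3, a centrin, 250, and Rsph1, of the radial spoke of cilia, 221. Near background were Tekt1 (63.9) and Tekt2 (52.8), tektins of the axoneme, Dnah8 (55.5), a dynein heavy chain, Spa17 (53.4), Kif3a (23.8), a kinesin of ciliary transport, and Tppp3 (12.6), a tubulin-binding protein of ciliated cells.

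The list of goblet, basal and neuroendocrine cells had the lowest median of the epithelial lists, 51.0. Of 19 ranked among 24 listed, 0 were in the top 10% and 12 (63.2%) were near background, against 30.9% of all genes. Tff1, a trefoil peptide of mucus, read 339, the ubiquitin hydrolase Uchl1 of neuroendocrine cells 223, and Krt5, the basal cell keratin, 133. Muc5ac, the goblet cell mucin of inflamed airways, read 17.6, and the granule proteins Scg2 and Scg5 3.37 and 0. These 3 were among the lowest of the list. The epithelial keratin and junction genes stood between. Of 18 ranked, 4 were in the top 10% and 5 near background, with a median of 182.

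Krt19, a keratin, read 824 and 87.0 with its 2 probe sets, and Tjp1, a tight junction scaffold, 737 and 17.5. Jup, which encodes plakoglobin, read 649 and Cldn3, a claudin, 471. Near background were Cdh16 (47.6), a cadherin, Spint2 (41.6), a protease inhibitor, Epcam (27.6), an epithelial adhesion molecule, Ehf (27.3), a transcription factor, and Cldn4 (24.8). Epcam is found in all lung epithelial cells, so its low probe set stood apart from the high readings of type I, type II and club cell genes.

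Endothelial genes stood high, below the matrix list in their median. Of 45 ranked among 54 listed, 20 (44.4%) were in the top 10% and 5 near background, with a median of 330. Eng, endoglin, a co-receptor for transforming growth factor beta, read 2517, and Cdh5, the cadherin of endothelial junctions, 1329. Ltbp4, a latent growth factor binding protein, read 1304, Ramp2, the partner of the adrenomedullin receptor, 1190, Cd93 1187 and Cldn5, the endothelial claudin, 1132. Genes of vessel identity and of blood clotting control shared this class. Vwf, the clotting protein von Willebrand factor, read 1076 with one probe set and 91.2 with the other, Pecam1 875, and Ace, which makes angiotensin II on lung capillaries, 874, 367 and 125 with 3 probe sets.

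The 5 endothelial genes near background were 11.1% of the list, against 30.9% of all genes. Selp (70.4) and Sele (4.89) are the selectins that capture white blood cells on inflamed vessels. Prox1, the transcription factor that defines lymphatic vessels, read 7.42. The others were Procr (70.3), the protein C receptor, and Tm4sf1 (34.9). Lyve1, a hyaluronan receptor of lymphatic vessels, read 330, and Flt4, a growth factor receptor of lymphatic vessels, 148 and 62.6. Vcam1, an adhesion molecule of inflamed vessels, read 220, 107 and 64.6. By their brightest probe sets other genes of these kinds thus lay above the threshold. The dimmest sets of Flt4 and Vcam1 lay under it.

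The matrix of the lung was represented across collagens, elastic fibres and proteoglycans. Of 58 fibroblast and matrix genes ranked among 62 listed, 30 (51.7%) were in the top 10% and 6 near background, with a median of 467. Gpx3, a secreted glutathione peroxidase, read 3609, Mgp, matrix Gla protein, an inhibitor of calcification, 3583, and Gsn, the actin-severing protein gelsolin, 3271. Inmt, an N-methyltransferase that is abundant in lung, read 3077. The structural proteins began with Col4a1 (2074), a chain of the basement membrane collagen, Bgn (1831), the small proteoglycan biglycan, and Eln (1528), elastin. The fibrillar collagens Col1a1 and Col3a1 read 1250 and 1175 with their brightest probe sets and 304 and 61.1 with their dimmest. With the dimmest probe set of every gene, the percent of fibroblast and matrix genes near background was 29.3%, against 10.3% with the brightest. Near background were Fbln2 (71.6), Col15a1 (66.4), Nid1 (64.8), Igfbp7 (62.9), Lum (44.1) and Vcan (31.7), all of them secreted proteins, and Vim, the intermediate filament of stromal cells, was at 138, close to the middle of the ranking.

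Smooth muscle genes were mostly high. Of 17 ranked among 20 listed, 10 (58.8%) were in the top 10% and 2 near background, with a median of 497. Tpm1, a tropomyosin, read 1195, Acta2, smooth muscle actin, 1055, Csrp1 943 and Mylk, the myosin light chain kinase that starts contraction, 872. Tagln, transgelin, read 730 and Cnn2, a calponin, 651. The low members were Rgs5 (63.1), a marker of pericytes, and Kcnmb1 (29.8), a subunit of the calcium-activated potassium channel. Mesothelial genes, of the lung's outer lining, had a median of 84.8, against 123 for all genes. Of only 8 ranked, 0 were in the top 10% and 4 (50%) near background, against 10% and 30.9% of all genes. Slpi, a secreted protease inhibitor shared with airway epithelium, read 444 with a probe set marked for cross-hybridisation, just under the top 10%. Its others read 315, 118 and 98.7. Msln, mesothelin, read 61.9.

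The macrophage list stood above the middle of the ranking, with members from the top to near background. Of 40 macrophage and monocyte genes ranked among 45 listed, 9 (22.5%) were in the top 10% and 7 (17.5%) near background, against 30.9% of all genes, with a median of 216. Lyz2, lysozyme, read 2785 with one probe set and 49.3 with the other, Apoe 1784 and 25.1, and Psap, prosaposin, 1433, 140 and 52.9. The protease Ctsd read 1391, the protease Ctsb 1114, 515, 153 and 60.6 with its 4 probe sets, and the tetraspanin Cd9 1102. These 6 are expressed by many cell types as well as by macrophages. Another 24 members lay between the 2 thresholds. Among them were Mpeg1 (405 and 36.8), Chil3 (365), C1qc (280), Tyrobp (267), C1qa (237), Csf1r (230 and 73.1), Itgax (177), Cd68 (115 and 14.4) and Mrc1 (110). With the dimmest probe sets the percent of macrophage and monocyte genes near background was 40%. The 7 members near background were Ctsk (70.3), Fcer1g (69.4), Adgre1 (60.4), the F4/80 antigen, Msr1 (32.9) and Marco (17.0), scavenger receptors, Aif1 (24.3) and Fcgr2b (20.7).

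Neutrophil and lymphocyte genes were lower. Of 21 neutrophil genes, 0 were in the top 10% and 10 (47.6%) near background, against 30.9% of all genes. Their median was 75.7, against 123 for all genes. Lcn2, which withholds iron from bacteria, read 409 and 49.2, Csf3r, the receptor for granulocyte colony-stimulating factor, 367, Ngp 298, Mpo, myeloperoxidase, 278 and 14.2, and S100a8, a calcium-binding protein, 210. The integrin chain Itgam read 17.8 and the chemokine receptor Cxcr2 25.7. Of 29 T cell and NK cell genes, 1 was in the top 10% and 16 (55.2%) were near background, with a median of 58.4. Zap70, a kinase of the T cell receptor, read 526 with a probe set marked for cross-hybridisation and 100 and 96.8 with its others. Ccl5 followed at 251, whereas the co-receptor chain Cd8a read 28.7 and the NK receptor Ncr1 1.71.

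B cell genes lay near the whole ranking in their median, with a few high members. Of 24 ranked, 5 (20.8%) were in the top 10% and 7 (29.2%) near background, against 10% and 30.9% of all genes, with a median of 119, against 123. Cd24a, a surface antigen that epithelium also carries, read 1504, and Xbp1, a secretory regulator that is not limited to B cells, 524. Pax5, the B lineage factor, read 557, and Cd79a, a chain of the B cell receptor complex, 330. Ighm, the mu heavy chain, had 16 probe sets, and they ran from 0 to 920. With the dimmest probe sets the percent of B cell and plasma cell genes near background was 54.2%. A probe set shared by Igkc and several variable genes, which is outside the ranking, read 2127.

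The class II antigen presentation genes were led by their assembly chaperone. Cd74, the invariant chain, read 2830, and the class II chains H2-Aa, H2-Eb1 and H2-Ab1 read 1465, 948 and 830. Over the list of class II and dendritic cell genes 5 of 24 (20.8%) were in the top 10% and 8 (33.3%) near background, with a median of 143. Those near background included Ccr7 (44.2), the receptor that leads dendritic cells to lymph nodes, Ciita (43.5), the class II transactivator, and H2-Ea (31.0), a chain that mice of the C57BL/6 background do not make. Class I genes stood higher as a group, with 8 of 17 (47.1%) in the top 10%, 2 near background and a median of 384. B2m, the light chain, read 2950, H2-K1 2949 and H2-D1 2473, with a second H2-D1 probe set at 2411 and a second H2-K1 probe set at 234.

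Globin genes were the highest of the red blood cell list. The labels do not say whether blood was left in the pooled lungs, and the source of the globin reading was not tested. Hba-a1 read 7643 and Hbb-b2, a beta globin, 2493, and a beta globin probe set with several symbols read 7185. Of 17 red blood cell genes 2 were in the top 10% and 6 (35.3%) near background, against 30.9% of all genes, with a median of 152. The other 4 of the highest 6 were Tfrc (358), Car2 (342), a carbonic anhydrase, Klf1 (278), an erythroid transcription factor, and Alas2 (238), of haem synthesis. Tfrc, the transferrin receptor, read 358 with a probe set marked for cross-hybridisation and 19.8 with its other. The array's control sets for this receptor read 98.8 (3'), 37.7 (middle) and 13.1 (5'). Among the lowest, Slc4a1, the band 3 anion exchanger, read 45.2, Car1, carbonic anhydrase 1, 17.1 and Rhag, of the Rh complex, 12.4. Platelet genes had 0 of 8 in the top 10%, 2 (25%) near background and a median of 121, with Gp9 at 229 and Pf4 at 27.9. Of 16 mast cell, basophil and eosinophil genes 2 (12.5%) were in the top 10% and 7 (43.75%) near background, against 10% and 30.9% of all genes. Their median was 98.8. The mast cell protease Tpsab1 read 873, and Cma1, another, 471, 461 and 36.1 with its probe sets. Fcer1a, a chain of the IgE receptor, read 24.1 and Il5ra 0.

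**Figure D2:**
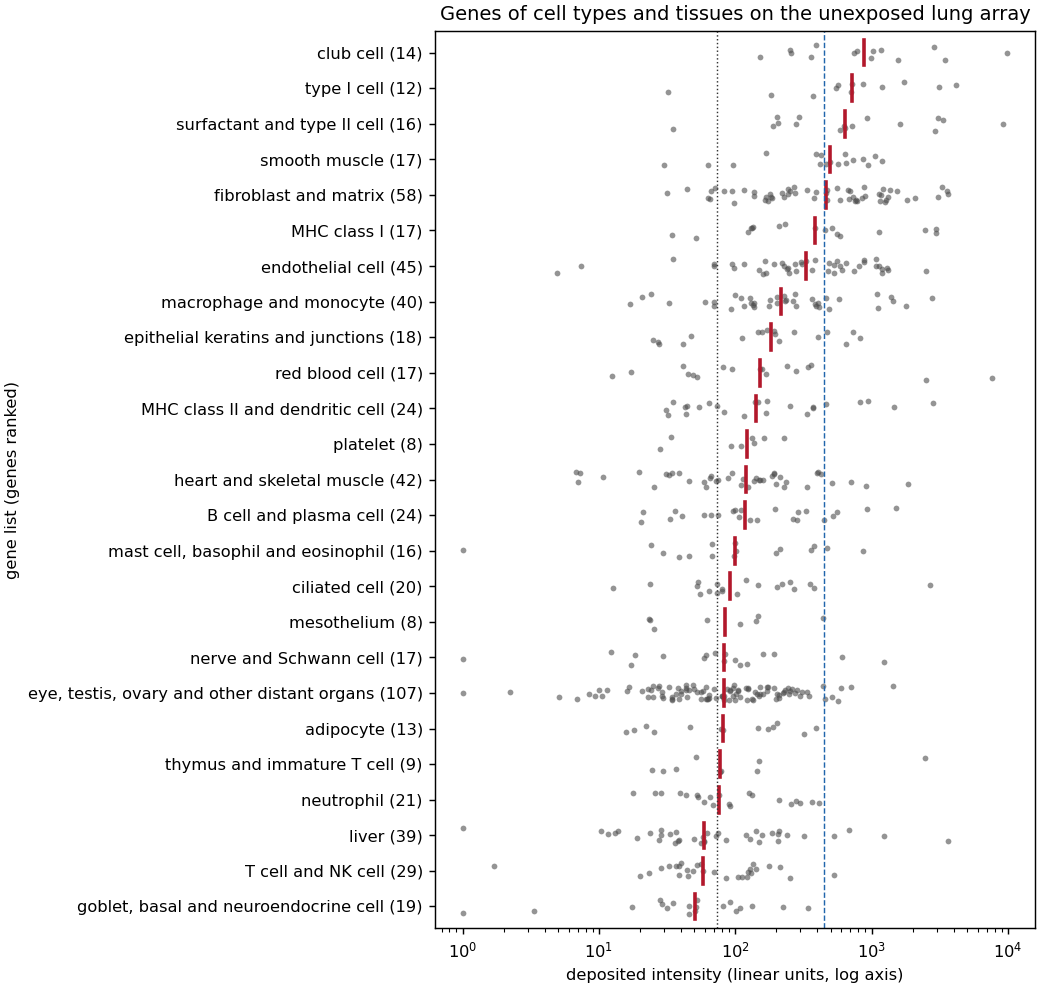
Each row is a list of genes of a cell type or tissue, with the number of ranked genes in brackets, and each point is 1 gene at its intensity on the unexposed array (x axis, linear units, log scale, genes under 1 unit drawn at 1). Red bars are medians, the dashed line is the lowest gene of the top 10% (448) and the dotted line the near background threshold (73.0). Club, type I, type II, smooth muscle and matrix genes have medians to the right of the dashed line, from 885 to 467, and T cell, liver and goblet lists lie to the left of the dotted line.

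Genes of neighbouring and distant tissues show what else the pool held and how high unrelated probe sets can read. Heart and skeletal muscle genes had 4 of 42 in the top 10% and 16 (38.1%) near background, against 30.9% of all genes. Their median was 119, against 123 for all genes. Actc1, cardiac actin, read 1845 with a probe set marked for cross-hybridisation, Myl7 and Myl4, light chains of atrial myosin, 909 and 701, Mb, myoglobin, 510, and Myh6, a cardiac myosin, 424. The skeletal actin Acta1 and the ventricular light chain Myl2 read 6.76 and 7.08. Myh7, a myosin of ventricle and slow muscle, read 400 and 333, each with a probe set marked for cross-hybridisation. The atrial peptide Nppa read 228. Myl3, another ventricular light chain, read 25.2, and Sln, a gene of atrial muscle, 34.1. The probe sets of Myl7, Myl4, Myl2, Myl3 and Sln were not marked. Among them the atrial light chains read above the ventricular ones, and Sln did not. For the myosin heavy chains this cannot be told from the marked probe sets of Myh7. In mice, heart-like muscle sheathes the pulmonary veins. Its part in these readings was not tested.

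Thymus genes had a median under that of all genes. Of 9, 1 (11.1%) was in the top 10% and 4 (44.4%) were near background, against 10% and 30.9% of all genes. The median was 76.9, against 123. Dntt, which adds bases at joints of antigen receptor genes, read 150, 102 and 34.1 with its probe sets. Ptcra, the pre-T cell receptor chain, read 143. Rag1, the recombinase of developing lymphocytes, read 2448 with a probe set marked for cross-hybridisation and 5.79 with its other one. Adipocyte genes had 0 of 13 in the top 10%, 5 (38.5%) near background and a median of 80.9. Lpl, lipoprotein lipase, led them at 391 and 41.3 with its 2 probe sets, and Pparg read 22.01. Of 17 nerve and Schwann cell genes 2 (11.8%) were in the top 10% and 8 (47.1%) near background, with a median of 82.2. Pmp22, a myelin protein that is also found in other tissues, read 1232 and 34.2, and Tubb3, a neuronal tubulin, 603 and 24.6.

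Liver genes were near background in the main, and Hp was the highest of them. Of 39 ranked, 22 (56.4%) were near background, against 30.9% of all genes, and 4 in the top 10%, with a median of 59.0. Apoa1, of high-density lipoprotein, read 1233, Proc, protein C, 679 and 68.3, and F9, clotting factor IX, 527. Alb, albumin, the leading liver transcript, read 128, while Ambp was listed at 0 and Crp at 10.4. The 107 genes of eye, testis, ovary and other distant organs had a median of 82.0, with 6 (5.61%) in the top 10% and 50 (46.7%) near background. Pcp2, a Purkinje cell gene, read 1446 and 23.3, Prph2, of photoreceptors, 701, Cryaa, of the lens, 596, and Aqp2, of the kidney collecting duct, 564. The near background threshold thus did not part absent from present transcripts, since 57 of these 107 lay above it.

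A stricter yardstick, chosen after the data were seen, is the level that 90% of the distant organ genes stayed under, 290 units. It was exceeded by 1588 of 8251 genes (19.2%). Above it lay 10 of 12 type I genes, 11 of 16 type II genes, 11 of 14 club cell genes, 13 of 17 smooth muscle genes, 33 of 58 matrix genes and 25 of 45 endothelial genes. For macrophages it was 14 of 40, for B cells 7 of 24, for neutrophils 3 of 21, for ciliated cells 3 of 20 and for T and NK cells 1 of 29. Lists of epithelial secretion and gas exchange, vessel and matrix therefore had most members above the reach of nearly all distant organ genes. This was not particular to them. The shares were 80.6% for cytoskeleton, 57.1% for ribosomal proteins, 56.2% for the respiratory chain, 54.2% for translation factors and 52.9% for class I. The T and NK cell, neutrophil and ciliated lists had smaller shares above this level than all genes.

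Among general functions, ribosomal proteins and cytoskeleton had medians close to those of the lung cell lists. Of 35 cytosolic ribosomal protein genes 20 (57.1%) were in the top 10% and 9 (25.7%) near background, with a median of 825. The bright members included Rps19 (2652) and Rpl19 (2562), and the dim ones Rpl38 (45.0), Rps14 (36.8), Rps20 (29.3), Rpl32 (22.1), Rpl35a (16.0) and Rpl39l (3.96). Ribosomes hold 1 copy of nearly every one of these proteins, while the readings of core subunits ran from 16.0 (Rpl35a) to 5638 (Rpl41). Rpl39l is a variant found mainly in testis. The median percentile of the list was 96.8 with the brightest probe set of each gene and 64.1 with the dimmest. Ribosomal protein genes read only by probe sets with several symbols are not in the list, so its share and median cover part of the family. The highest such sets read 4131 (Rps23), 3601 (Rps12) and 3438 (Rplp1). Rps27 read 132 in the ranking and 3025 with a shared set.

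Translation factors had 8 of 24 in the top 10% and 5 near background, with a median of 315. Eef2, the translocation factor, read 2073 and Pabpc1, which binds the tail of messenger RNA, 1482, while Eef1g read 17.8 and the cap-binding protein gene Eif4e 37.2. The cytoskeleton list had the second highest share of top genes after the type I list. Of 31 ranked, 23 (74.2%) were in the top 10% and 3 near background, with a median of 787. Tmsb4x, the actin-binding thymosin beta 4, read 4008, Actg1, gamma actin, 2712, Anxa2, an annexin, 2046, and Tmsb10 1904. Actb, beta actin, read 132 by its ranked probe set and 124 by another, whereas the array's own 3' beta-actin control set read 7606. Myl6 (43.6), Cap1 (33.6) and Flna (28.95) were near background.

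Genes of energy supply and protein turnover lay in the upper middle. Of 73 respiratory chain genes 21 (28.8%) were in the top 10% and 9 (12.3%) near background, with a median of 331. Cox6c, a subunit of cytochrome oxidase, read 1522 with a probe set marked for cross-hybridisation and 42.7 and 26.1 with its others. Cox6a1, of the same enzyme, read 1312, also with a marked probe set. Atp5l, of the ATP synthase, read 922, while Ndufa12, of complex I, read 16.5. Glycolysis genes had 4 of 19 in the top 10%, 3 near background and a median of 212.7, led by Aldoa, aldolase, at 1647 and Hk1, the hexokinase, at 975. Proteasome genes had 6 of 32 in the top 10%, 2 near background and a median of 293. Psmd4 read 593 and Psma2 581, and Psmd2, at 33.6, was the lowest. Cell division genes had 0 of 41 in the top 10% and 22 (53.7%) near background, against 30.9% of all genes. Their median was 57.1. Ccne1, cyclin E1, read 366, and Top2a, a topoisomerase of dividing cells, 17.2.

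Antioxidant and detoxifying genes stood mostly above the middle of the ranking. The antioxidant and metallothionein list had 7 of 29 in the top 10% and 4 near background, with a median of 247. After Gpx3 and Fth1 came Txn1, thioredoxin, 1583, Sod3, the superoxide dismutase of the extracellular space, 1391, Sod1 1124 and Gpx2 837. Near background were Gclm (59.4), of glutathione synthesis, Nqo1 (37.4), a quinone reductase, Hmox2 (36.5), a haem oxygenase, and Srxn1 (34.3), sulfiredoxin. Among glutathione S-transferases 5 of 18 were in the top 10% and 1 near background, with a median of 229. Gstm1 read 2373 and 167 with its 2 probe sets, Gstm3 1258 and 344, and the microsomal Mgst1 1073, while Gsta1 was listed at 0.

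Cytochromes P450 showed a sharp contrast within the family. The 3 in the top 10%, Cyp2f2, Cyp4b1 and Cyp2b10, are those of the club cell list, and the next, Cyp2e1, read 240. Of 31 ranked, 14 (45.2%) were near background, against 30.9% of all genes, and the median was 80.4. Cyp3a11 (11.6) and Cyp4a10 (9.36), which are abundant in liver, were among the lowest. Ion and water transport genes had 6 of 27 in the top 10% and 6 near background, with a median of 159. Clic4, a chloride channel protein, read 1559, 1509 and 988 with 3 probe sets, the sodium pump subunit Atp1b3 909, and Aqp1, the water channel of lung capillaries, 661 and 92.2. Cftr, the chloride channel mutated in cystic fibrosis, read 47.9, 17.5 and 15.7 with its 3 probe sets.

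Signalling genes had medians near that of all genes, under those of the matrix and cytoskeleton lists. Vasoactive peptides and their receptors had 6 of 40 in the top 10% and 13 (32.5%) near background, against 30.9% of all genes. Their median was 115, against 123 for all genes. After Ramp2 came F2r, the thrombin receptor, 1025, then Ace, Calcrl, the receptor that pairs with Ramp2, 652, Ptgis, prostacyclin synthase, 475, and Ece1, which activates endothelin, 467. The inducible enzymes Nos2 and Ptgs2 read 24.5 and 21.5. Growth factors and morphogens had 5 of 59 in the top 10% and 19 (32.2%) near background, again close to all genes. Their median was 106. Kitl, stem cell factor, read 728, Fgfr2 565, Vegfa 563 and the Wnt receptor Fzd4 557, 7.49 and 4.15, while Met, the receptor for hepatocyte growth factor, read 4.15.

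The lung development transcription factors had 8 of 54 in the top 10% and 11 (20.4%) near background, with a median of 201. Hoxa4 read 836, 73.1, 33.7 and 6.37 with its 4 probe sets, Id1, an inhibitor of differentiation, 765, and Epas1, the hypoxia factor of vessels and type II cells, 750. Sox18, an endothelial factor, read 588 and 547. Meis2, at 2.24, and Pax6, at 12.2, were the lowest. Immediate early genes, which respond within minutes to handling or injury, had 7 of 30 in the top 10% and 5 near background, with a median of 275. Jund read 2350, Dusp1, a phosphatase, 1080, Ier3 984, Fosb 582 and Jun 571, against 5.74 for Myc.

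Chemokines and cytokines had the lowest median of all 42 lists, 46.9. Of 55 ranked, 1 was in the top 10% and 32 (58.2%) were near background, against 30.9% of all genes. Ccl4 read 631, Ccl6, a chemokine of macrophages, 409, Cxcl12, which stroma makes, 329, and Il13 322. Il6 (4.61), Cxcl2 (3.40), Ccl2 (1.14) and Cxcl10 (0), which rise in inflamed lung, were at the bottom. A Ccl21 probe set shared by several gene copies, outside the ranking, read 826. Complement and secreted defence genes stood higher, with 4 of 28 in the top 10%, 6 near background and a median of 197. They were Lyz2, Wfdc2 (2017), a protease inhibitor-like protein of airway secretions, Serping1 (883), the C1 inhibitor, and Hc (644), complement C5. The 6 near background were Cfp (69.4), Cd59a (63.4), Sftpd (35.0), the beta-defensin Defb1 (29.4), C9 (18.9) and Cfi (18.0).

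**Figure D3:**
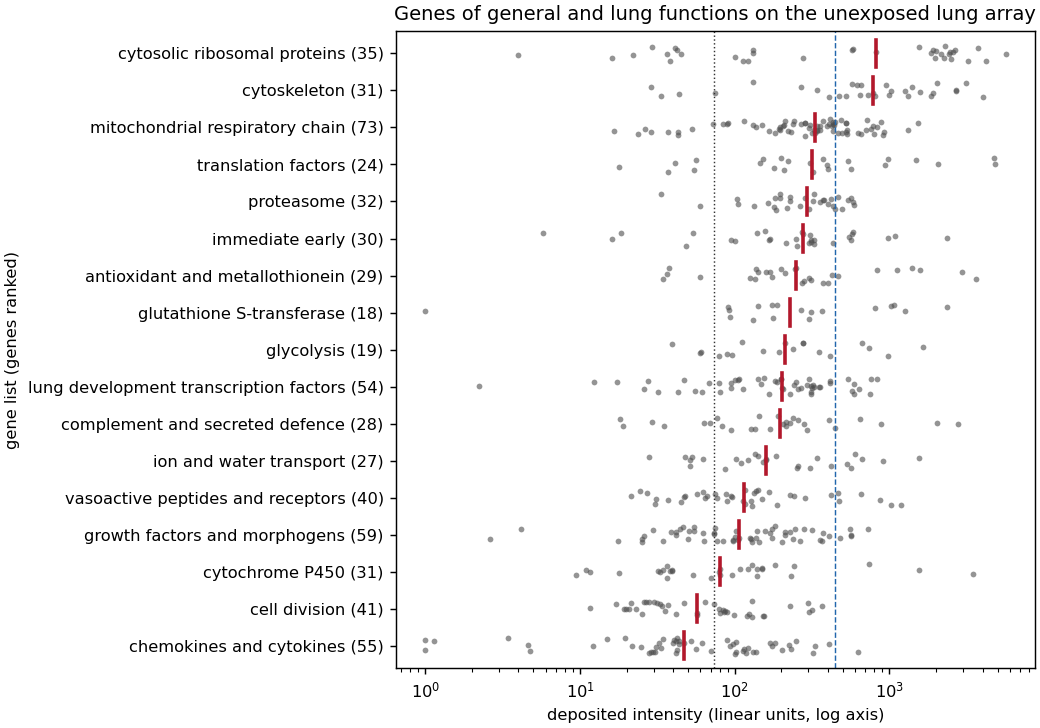
Each row is a list of genes of a general or lung function, with the number of ranked genes in brackets, and each point is 1 gene at its intensity on the unexposed array (x axis, linear units, log scale, genes under 1 unit drawn at 1). Red bars are medians, the dashed line is the lowest gene of the top 10% (448) and the dotted line the near background threshold (73.0). Ribosomal and cytoskeletal genes have medians of 825 and 787, and cell division and chemokine genes 57.1 and 46.9.

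How far an intensity depends on the probe set could be measured on the 2073 genes with more than 1. The brightest probe set exceeded the second by a median of 1.24 on the log2 scale, with an upper quartile of 2.19. Of 1705 genes whose brightest probe set was above the near background threshold, 1030 (60.4%) had their dimmest below it. Of 312 such genes in the top 10%, 62 (19.9%) had their second probe set there as well and 82 (26.3%) had it near background. Clic4, H2-D1 and Rps28 had near-equal bright pairs, and Lyz2, Apoe, Rps24 and Rag1 had a bright and a near background one. Probe sets marked for possible cross-hybridisation stood for 18.4% of genes in the top 10%, 12.7% between the thresholds and 11.1% near background.

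**Figure D4:**
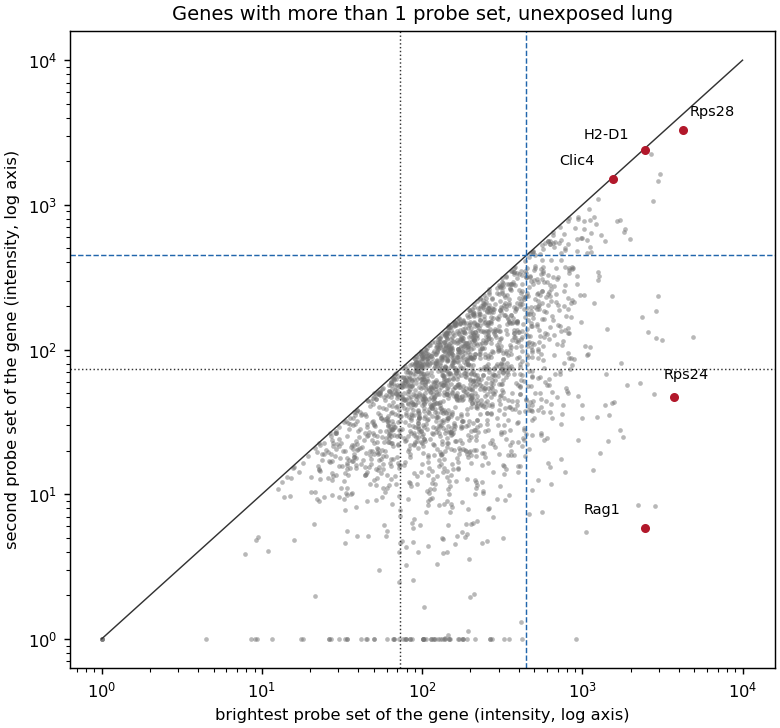
Each point is 1 of the 2073 genes with more than 1 probe set, by the intensity of its brightest (x axis) and second brightest probe set (y axis), both in linear units on log scales, with values under 1 drawn at 1. The solid line marks equal readings, dashed lines the lowest gene of the top 10% (448) and dotted lines the near background threshold (73.0). Rps28, H2-D1 and Clic4 lie near the line of equality and Rps24 and Rag1 (2448 and 5.79) far below it.

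The array's own control probe sets ran from 8.86 to 7606. The 15 probe sets of Bacillus transcripts ran from 13.4 to 171 with a median of 58.5, and the 4 of yeast from 8.86 to 79.2 with a median of 27.5, so 13 of these 19 lay under the near background threshold. The 15 antisense sets ran from 51.9 to 622 with a median of 85.1. The 9 hybridisation spike-ins ran from 89.0 to 3796, and the 3 sets for mouse repeats read 529, 1665 and 6327. Of 20 sets for mouse transcripts the 3' beta-actin set was the highest, 7606. The ratio of the 3' to the 5' set, a sign of RNA integrity, was 1.5 for beta-actin and 1.21 for Gapdh.

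**Figure D5:**
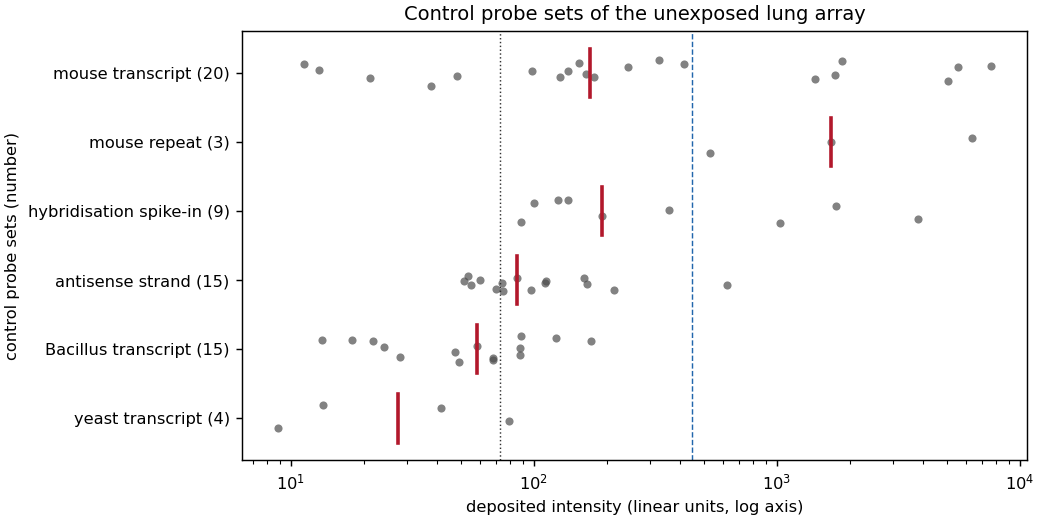
Control probe sets of the unexposed array by kind, with their number in brackets, each point being 1 probe set at its intensity (x axis, linear units, log scale). Red bars are medians, the dashed line is the lowest gene of the top 10% (448) and the dotted line the near background threshold (73.0). Bacillus and yeast sets have medians of 58.5 and 27.5, left of the dotted line, and none reaches the dashed line.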

How the data were processed

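The values are the intensities that the authors deposited, linear and never negative, with 184 probe sets of this array at exactly 0. How those intensities were computed and scaled is not given in the sources used here, and the number of arrays limits the precision. Only the unexposed array was used, unscaled, since ranks within 1 array do not move with scaling. Its median over all probe sets was 97.7.

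Names came from the platform annotation, and the update through gene identifiers changed 0 symbols. Of 12488 probe sets 66 were controls, 396 carried several symbols and 1193 were not listed, all left out of the ranking. Of 8251 genes 2073 had more than 1 probe set, and the brightest stood for the gene. Of these genes 1205 were in any of the 42 lists and 70 in several. The members, lists and rules were chosen with earlier results of these data known. Named were the 30 highest genes, up to 6 highest and 6 lowest members of each list, and all members near background where 8 or fewer were. Any other gene was named for its role after its value was seen.

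A comparison of promoter features by rank was void, because 6572 of 8251 genes (79.7%) had a RefSeq promoter, and 656 of 825 (79.5%) in the top 10%, and protein length was not analysed here. Alternatives were the median or dimmest probe set, no probe sets with a cross-hybridisation suffix, other thresholds, the top 5% and 20%, and genes kept in 1 list only. Values were computed with Python 3.11.15, pandas 2.3.3, numpy 2.4.6 and scipy 1.17.1, plots drawn with matplotlib 3.10.9, and the code was tested on simulated data.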

Additional observations from a re-analysis of the deposited data

Results flagged for a closer look

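Probe sets outside the ranking also read high. Of the 396 that carry several symbols, 92 (23.2%) read as high as the top 10% of genes, and 12 as high as the first 30. The highest was the beta globin set at 7185, and one shared by Lyz1 and Lyz2 read 4063. Of the 1193 with no listed symbol, 72 (6.04%) reached the same range, the highest at 5503, and 659 were near background.

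Among control probe sets, that of the mouse repeat MURINE_B2 read 6327, above all but 3 ranked genes. The antisense control CreX-3 read 622, where the other 14 antisense sets read 214 or less, and the sense set of the same spike-in read 3796.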

How the results depend on the processing

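No paired analysis was possible because the result comes from 1 array and from no test, and for the same reason no replicate could be left out. The number of genes near background was 2548, and it was 1423 with the threshold at the 25th percentile (43.6 units), 4302 at the 60th (130), 5220 at the highest control of another species (171) and 6663 at the 90th percentile of distant organ genes (290), the last chosen after seeing the data. The median percentile of fibroblast and matrix genes was 90.7 with the brightest probe set and 74.8 with the dimmest. The share of genes whose probe sets lay on both sides of the threshold was 60.4%, and 56.3% without probe sets marked for cross-hybridisation. Over all 42 lists the dimmest probe set moved the median percentile by -32.7 (cytosolic ribosomal proteins) to 10.1 points (mesothelium), and by over 10 points in 11 lists. The median probe set moved it by -8.69 to 4.60 points, leaving out marked probe sets by -11.2 to 5.30, and keeping shared genes in 1 list by -10.3 to 1.76. The alternatives for promoter features were not run. Of the 1210 genes on a list or among the 30 highest, 105 changed class with the median probe set and 248 with the dimmest. Without marked probe sets 69 of 1105 did. Not all of these genes are named in the text. Low intensities limit what can be said of dim genes.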

Other observations

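Among the 100 highest genes 36 were on no list. Examples are Npc2, which carries cholesterol in the lysosome and read 2222, Laptm4a (2133), Lamp1 (1895), a main protein of the lysosomal membrane, and the GTPases Rac1 (2352) and Arf1 (1755). Others are Gnai2 (2777), an inhibitory G protein subunit, Ybx1 (2709), an RNA-binding protein, App (2669), the amyloid precursor protein, Itgb1 (1720), the beta 1 integrin, and Ctnnb1 (1625), beta-catenin. Ifitm3, an antiviral membrane protein, read 1766, Cavin2, a protein of caveolae, 1558, and Pltp, which transfers phospholipids, 1555. All were chosen after their values were seen.

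A few genes at this height are known from other tissues. Vax1, a homeobox gene of the developing eye and forebrain, read 2094, Neurog1, a neurogenic factor, 1715, Krt35, a hair keratin, 1581, and Sprr1b, of cornified epithelia, 2832 with one probe set and 8.31 with the other.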
